A study of Mus musculus with 12 samples.

Results

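The Schlafen genes form a mouse gene family whose first members were found through their growth-restraining activity in thymocytes. Slfn1 and Slfn2 encode short proteins, Slfn3 and Slfn4 proteins of intermediate length, and Slfn5, Slfn8 and Slfn9 long proteins with a helicase-like carboxy-terminal part. Slfn2 keeps T cells in quiescence, several members are induced by type I interferon, and Slfn4 is best known from cells of the myeloid lineage.

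The members described here are the 7 protein-coding genes Slfn1, Slfn2, Slfn3, Slfn4, Slfn5, Slfn8 and Slfn9, taken by symbol from the 50600 gene identifiers counted in each of 12 RNA-seq libraries, and all 7 passed the low-count filter. The libraries came from 4 groups of 3 mice. Ctrl were thymocytes with floxed but intact Dnmt1 (DNMT1 fl/fl, 20 to 25 wk), and KO were thymocytes in which Cd4-Cre deleted the maintenance DNA methyltransferase gene (DNMT1 fl/fl CD4-CRE, 20 to 21 wk). ALK were T cell lymphoma cells of mice labelled NPM-ALK+ (22 to 31 wk), and ALKKO were tumor-free thymocytes with both alleles (NPM-ALK+, DNMT1 fl/fl CD4-CRE, 19 to 25 wk). The transgene is human NPM-ALK, the fusion kinase of anaplastic large cell lymphoma, driven by the Cd4 enhancer and promoter, so that transgene and deletion both act in Cd4-expressing T-lineage cells. Because ALK are tumors and the other groups are thymi, tumor state and genotype cannot be told apart in any comparison with ALK. The labels give 11 males and 1 female, the second KO mouse (KO2).

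Levels are reads on a gene scaled to a common library total (CPM) after TMM normalization. A gene was called when its Benjamini-Hochberg adjusted p in edgeR's quasi-likelihood test was under 0.05 and its log2 fold change passed 1 in either direction. Dnmt1 read 400.0 to 487 CPM in the Ctrl libraries and 205 to 244 CPM where it was deleted, and reads on mouse Alk, on which the human transgene is not separately counted, were 34.9 to 55.0 CPM in ALK and ALKKO and 0.107 to 0.431 CPM in Ctrl and KO. KO2 stood apart from the other thymus libraries. Its summed B-cell markers were 2440.3 CPM against 73.9 to 127 CPM, its 15 macrophage and granulocyte markers summed to 3574 CPM against 928 to 1431 CPM, its mature single-positive thymocyte markers to 10438 CPM against 2824 to 3804 CPM, and its double-positive markers to 2886.0 CPM against 6922 to 9274 CPM. Most of the mature single-positive sum came from the MHC class I genes H2-K1, H2-D1 and B2m, at 3185, 2254 and 3093 CPM in KO2. The 2 defining markers Rag1 and Itgam were listed at 0 counts in all 12 libraries, and each overlaps 1 other annotated gene on its own strand. None of the 7 Schlafen genes overlaps another protein-coding gene on its strand. In bulk RNA, fewer cells of a type and less RNA per cell cannot be told apart.

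All 7 genes lie in 1 cluster on chromosome 11 (GRCm38), from Slfn5 (82951349 to 82964840, plus strand) through Slfn9 (82978390 to 82991830, minus), Slfn8 (83002158 to 83020810, minus), Slfn2 (83065112 to 83070678, plus), Slfn1 (83116849 to 83122670, plus) and Slfn4 (83175186 to 83190216, plus) to Slfn3 (83191330 to 83215154, plus). The coding sequences predict 337 residues for Slfn1, 378 for Slfn2, 640 for Slfn3, 602 for Slfn4, 884 for Slfn5 and 910 each for Slfn8 and Slfn9. The nearest relatives are Slfn8 and Slfn9, with 92.7% identical coding bases, and Slfn3 and Slfn4, with 85.8%. Slfn1 and Slfn2 are identical at 62.2% of the bases of the longer sequence.

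The start regions are shown for the 5 genes that were called in at least 1 comparison between groups. Each is the RefSeq window (GRCm38.p6) of 250 bases before to 50 bases after the annotated start, in the 5′ to 3′ direction of the gene. Capitals mark, on either strand, ACTTCCTG (a core bound by ETS factors, searched for after these sequences had been seen) in Slfn1, Slfn2 and Slfn4, and, in Slfn5 and Slfn9, the core of the interferon-stimulated response element, spelled GAAA, 2 bases of any kind and GAAA. The windows are chr11:83116570-83116869 for Slfn1, chr11:83064862-83065161 for Slfn2, chr11:83174936-83175235 for Slfn4, chr11:82951852-82952151 for Slfn5 and chr11:82991781-82992080, on the minus strand, for Slfn9.
Slfn1: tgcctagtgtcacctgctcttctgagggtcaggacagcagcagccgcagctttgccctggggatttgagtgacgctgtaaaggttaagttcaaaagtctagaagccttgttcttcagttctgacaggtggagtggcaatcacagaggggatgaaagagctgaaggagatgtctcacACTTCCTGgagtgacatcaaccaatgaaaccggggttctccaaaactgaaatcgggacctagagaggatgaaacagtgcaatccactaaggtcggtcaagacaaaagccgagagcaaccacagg
Slfn2: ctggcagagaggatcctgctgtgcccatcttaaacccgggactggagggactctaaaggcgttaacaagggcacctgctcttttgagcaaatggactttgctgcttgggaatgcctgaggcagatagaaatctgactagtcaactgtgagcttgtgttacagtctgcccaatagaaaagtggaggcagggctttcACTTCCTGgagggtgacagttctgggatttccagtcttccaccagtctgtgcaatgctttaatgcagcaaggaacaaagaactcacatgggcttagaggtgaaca
Slfn4: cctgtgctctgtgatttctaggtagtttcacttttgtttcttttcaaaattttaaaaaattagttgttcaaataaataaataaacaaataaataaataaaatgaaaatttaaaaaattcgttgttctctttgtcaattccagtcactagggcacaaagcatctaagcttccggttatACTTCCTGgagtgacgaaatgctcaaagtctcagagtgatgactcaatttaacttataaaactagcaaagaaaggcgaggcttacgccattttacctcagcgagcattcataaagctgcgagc
Slfn5: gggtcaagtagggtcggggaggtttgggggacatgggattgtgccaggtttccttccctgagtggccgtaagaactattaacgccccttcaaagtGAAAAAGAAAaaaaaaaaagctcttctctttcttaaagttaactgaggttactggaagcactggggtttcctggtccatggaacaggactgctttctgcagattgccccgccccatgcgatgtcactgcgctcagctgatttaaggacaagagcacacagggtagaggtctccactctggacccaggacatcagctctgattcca
Slfn9: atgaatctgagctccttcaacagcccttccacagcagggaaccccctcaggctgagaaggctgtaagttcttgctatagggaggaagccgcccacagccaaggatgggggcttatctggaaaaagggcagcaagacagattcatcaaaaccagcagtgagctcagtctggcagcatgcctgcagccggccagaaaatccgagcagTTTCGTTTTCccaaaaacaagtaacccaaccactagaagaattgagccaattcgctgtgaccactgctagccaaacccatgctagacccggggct

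ACTTCCTG began 74 bases before the start of Slfn1, 55 before that of Slfn2 and 73 before that of Slfn4, and Slfn3 held it on both strands, so that the short and intermediate members carried it. It was in 3.33% of the 32851 mouse windows of this length. Because ACTTCCTG was chosen after the members' windows had been seen, this share cannot measure an enrichment. The interferon-stimulated response element core was in the windows of Slfn5, Slfn8 and Slfn9, the long members, and in 3.44% of all windows. The windows of Slfn8 and Slfn9 are identical at up to 82% of bases, so their matches are not independent. The 2 motifs overlapped in none of the Schlafen windows. TTCNNNGAA, the interferon-gamma-activated site bound by STAT factors and palindromic in its fixed letters, was in no member's window and in 8.30% of all windows. CG dinucleotides, where Dnmt1 maintains methylation, numbered 6 in the Slfn1 window, 2 in Slfn2, 7 in Slfn4, 6 in Slfn5 and 6 in Slfn9, with a median of 7 over all windows. These matches describe letters and no binding or methylation was measured at them here.

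Slfn1, the founding member with growth-inhibitory activity in thymocytes, was nearly absent from lymphoma cells. Its level was 43.6, 31.1 and 36.3 CPM in Ctrl, 32.3, 113 and 16.0 CPM in KO, 0.269, 0.349 and 1.02 CPM in the ALK tumors, and 29.1, 25.4 and 24.5 CPM in ALKKO. All 3 ALK tumors lay below all 9 thymus libraries, and the highest tumor was 15.7-fold below the lowest of these, the third KO mouse. The ALK values rest on 4, 4 and 13 counts, with exact 95% Poisson intervals, which cover counting error only, of 1.09 to 10.2 for each count of 4 and 6.92 to 22.2 for the 13. The mean was 67.9-fold lower in ALK than in Ctrl, and Slfn1 fell by 6.07 ± 0.786 on the log2 scale (SE, n = 3 per group; edgeR, adjusted p = 0.000782). It fell by 6.61 ± 0.801 against KO (edgeR, adjusted p = 0.000561) and by 5.58 ± 0.773 against ALKKO (edgeR, adjusted p = 0.00115). ALKKO lay just below Ctrl with no overlap, at a log2 fold change of -0.49 ± 0.597 that missed the threshold (edgeR, adjusted p = 0.9998).

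Slfn2, whose loss is known to break T-cell quiescence, had the highest level per exon length of the family in thymocytes. Its level was 157, 149 and 115 CPM in Ctrl, 137, 292 and 109.7 CPM in KO, 26.8, 8.64 and 32.7 CPM in the ALK tumors, and 135, 126 and 117 CPM in ALKKO. The tumors again lay below all thymus libraries, though the transcript stayed well above the detection limit. The mean was 6.18-fold lower in ALK than in Ctrl, and Slfn2 fell by 2.63 ± 0.475 on the log2 scale (edgeR, adjusted p = 0.00328), by 2.98 ± 0.481 against KO (edgeR, adjusted p = 0.00191) and by 2.47 ± 0.472 against ALKKO (edgeR, adjusted p = 0.00457). Between Ctrl and ALKKO the ranges overlapped.

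Slfn4, the myeloid-associated member, had the largest fold difference of the family between Ctrl and ALKKO. Its level was 1.32, 1.66 and 1.02 CPM in Ctrl, 3.13, 25.2 and 3.30 CPM in KO, 0.470, 0.262 and 1.02 CPM in the ALK tumors, and 24.0, 19.6 and 20.6 CPM in ALKKO. All 6 libraries with deleted Dnmt1 lay above all 6 with intact Dnmt1, and the ALKKO libraries together with KO2 lay far above the other 2 KO libraries. The counts behind these values were 19 to 31 in Ctrl, 49 to 293 in KO, 3 to 13 in ALK and 322 to 397 in ALKKO. The ALKKO mean was 16.0-fold that of Ctrl, and the lowest ALKKO library was 11.8-fold above the highest Ctrl library. This difference, 3.99 ± 0.835 on the log2 scale, did not pass the adjusted threshold in the fit of all 12 libraries (edgeR, unadjusted p = 0.000648, adjusted p = 0.173). It passed without KO2 (edgeR, adjusted p = 0.0111) and in the fit of Ctrl and ALKKO alone (edgeR, adjusted p = 0.000958). For KO against Ctrl the log2 difference was 2.97 ± 0.802 (edgeR, adjusted p = 0.864) with the nearest values 1.88-fold apart.

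In ALK, Slfn4 fell by 5.17 ± 0.902 on the log2 scale against ALKKO (edgeR, adjusted p = 0.00303) and by 4.15 ± 0.869 against KO (edgeR, adjusted p = 0.00588). Against Ctrl the difference was -1.18 ± 0.821 (edgeR, adjusted p = 0.299), and the groups were separated by a factor of 1.01 at their nearest values. The summed macrophage and granulocyte markers, of the lineage in which Slfn4 is best known, were 928 to 1052 CPM in the Ctrl libraries, 1189 to 1357 CPM in those of ALKKO, 958 to 1431 CPM in KO1 and KO3, 3574 CPM in KO2 and 621 to 1617 CPM in the tumors. In ALKKO against Ctrl all 14 tested markers had a positive log2 difference, with a median of 0.35, 8 were higher without overlap where 9.92% of all genes were, and 0 passed the adjusted threshold. The markers' part in the Slfn4 values was not tested.

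**Figure D1:**
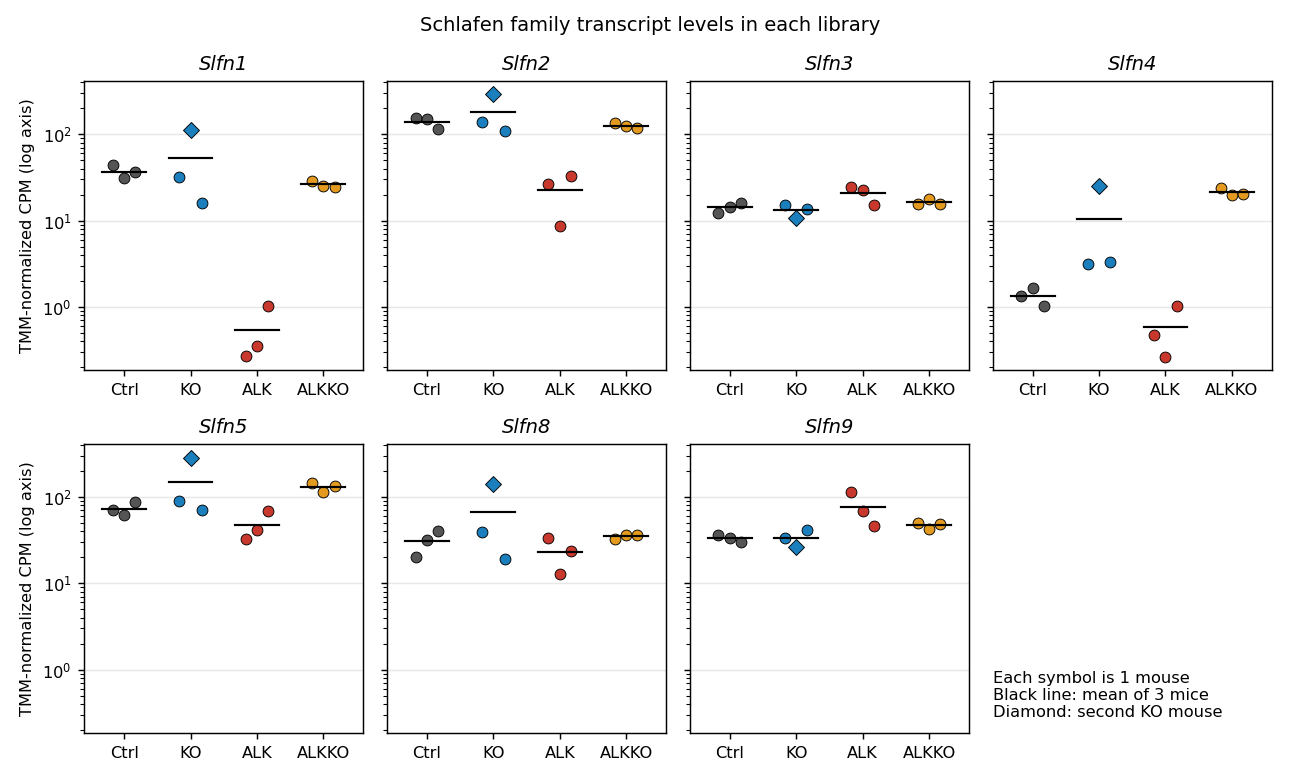
TMM-normalized CPM of the 7 Schlafen genes (log axis) in the 3 libraries of each group (1 symbol per mouse, line at the mean, diamond for KO2). Slfn1 drops to 0.269 to 1.02 CPM and Slfn2 to 8.64 to 32.7 CPM in ALK, Slfn4 is at 19.6 to 24.0 CPM in ALKKO against 1.02 to 1.66 CPM in Ctrl, and KO2 is the highest KO library for Slfn1, Slfn2, Slfn4, Slfn5 and Slfn8.

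Slfn5, a long member that is inducible by interferon, was at 71.0, 61.9 and 87.6 CPM in Ctrl, 91.1, 282 and 71.5 CPM in KO, 32.7, 41.6 and 68.2 CPM in the ALK tumors, and 146, 114 and 136 CPM in ALKKO. The ALKKO libraries lay above all Ctrl and all ALK libraries, while ALK and Ctrl overlapped. Slfn5 fell by 1.47 ± 0.468 in ALK against ALKKO (edgeR, adjusted p = 0.0390), a call that was lost without either of the first 2 ALK libraries or any 1 of the ALKKO libraries (edgeR, adjusted p 0.0648 to 0.105). It fell by 1.64 ± 0.470 against KO (edgeR, adjusted p = 0.0225), which was also lost without KO2 (log2 fold change -0.81, edgeR, adjusted p = 0.0598) and without ALK1 (edgeR, adjusted p = 0.0644) or ALK2 (edgeR, adjusted p = 0.0686). The Slfn5 call against KO was also lost with sex as a covariate (log2 fold change -0.78). It was lost as well in the fit of ALK and KO alone (edgeR, adjusted p = 0.123). Over all alternatives Slfn5 stayed called in 10 of 15 against KO and in 8 of 16 against ALKKO. ALKKO against Ctrl gave 0.85 ± 0.460 (edgeR, adjusted p = 0.9998).

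Slfn9 was the member that was higher in lymphoma cells. It read 36.4, 33.7 and 30.1 CPM in Ctrl, 33.7, 26.3 and 41.8 CPM in KO, 116, 69.2 and 46.3 CPM in the ALK tumors, and 49.9, 42.5 and 48.7 CPM in ALKKO. The tumors differed among themselves by more than the thymi, and the lowest, ALK3, lay within the ALKKO range. Slfn9 rose by 1.21 ± 0.293 on the log2 scale in ALK against Ctrl (edgeR, adjusted p = 0.0126) and by 1.18 ± 0.293 against KO (edgeR, adjusted p = 0.0124), and gave 0.71 ± 0.290 against ALKKO (edgeR, adjusted p = 0.0901). Without ALK1 the difference from Ctrl was 0.79 and from KO 0.78, and without KO2 the difference from KO was 0.996, below the fold threshold in each case (edgeR, adjusted p 0.0240 to 0.0436). In the fit of ALK and KO alone, Slfn9 missed the adjusted threshold (edgeR, adjusted p = 0.111).

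Slfn8, the closest relative of Slfn9, followed another pattern. It was at 20.1, 32.1 and 40.3 CPM in Ctrl, 39.5, 140.3 and 19.2 CPM in KO, 33.3, 12.9 and 23.7 CPM in the ALK tumors, and 32.9, 35.9 and 36.4 CPM in ALKKO. Apart from KO2 the libraries ran from 12.9 to 40.3 CPM, the tumors overlapped every thymus group, and no comparison was called. Shared sequence limits both genes, since 14.6% of the 50-base windows of Slfn8 and 11.9% of those of Slfn9 occur in transcripts of at least 1 other gene, which include Slfn10-ps as well as each other. This limit is not particular to the pair. The shared part was 16.0% for Slfn3, 11.3% for Slfn4, 11.1% for Slfn5, 4.27% for Slfn2 and 0.606% for Slfn1.

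Slfn3 stayed within a narrow range, with 12.2, 14.5 and 16.1 CPM in Ctrl, 15.3, 10.6 and 13.7 CPM in KO, 24.3, 22.5 and 15.0 CPM in the ALK tumors, and 15.6, 17.9 and 15.5 CPM in ALKKO. The first 2 tumors lay above all thymus libraries and the third did not, and no comparison was called. Its log2 difference in ALK against Ctrl was 0.53 ± 0.243 (edgeR, adjusted p = 0.121). Slfn3 and Slfn4 share 252 such windows, yet Slfn4 differed 16.0-fold between Ctrl and ALKKO and Slfn3 differed 1.15-fold.

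Of the 7 members, 1 was called higher and 2 lower in ALK than in Ctrl, while among the 16052 genes tested 20.4% were called, 1350 higher and 1931 lower. Against KO 1 was called higher and 4 lower (23.6% of all genes, 1275 higher and 2521 lower), and against ALKKO 0 higher and 4 lower (19.6% of all genes, 1129 higher and 2016 lower). The groups did not overlap for 4, 5 and 4 members in these comparisons, and for 46.4%, 38.2% and 43.2% of all genes. The members' median log2 difference in ALK was -0.63 against Ctrl, -1.64 against KO and -1.47 against ALKKO, while the median over all genes was 0.05, -0.0018 and 0.03. No member was called in KO against Ctrl (0.0187% of all genes called), ALKKO against Ctrl (0.181%) or ALKKO against KO (0.00623%). At an unadjusted p under 0.05, edgeR passed Slfn4 in the first 2 of these and 0 members in the third, beside 5.52%, 3.18% and 2.69% of all genes, and DESeq2, which gave Slfn4 no adjusted p, called 0 of the other members in each. Members without overlap between Ctrl and ALKKO were Slfn4, Slfn5 and Slfn9, higher in ALKKO, and Slfn1, lower, where 17.5% of all genes did not overlap (9.92% higher and 7.56% lower in ALKKO). Between Ctrl and KO, Slfn4 had no overlap, as had 12.4% of all genes. An exact two-sided permutation test of 3 against 3 mice cannot give a p below 0.1, the value for each of these 4. All comparisons with ALK share the same 3 tumors. The plot of fitted differences sets the 6 comparisons side by side.

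**Figure D2:**
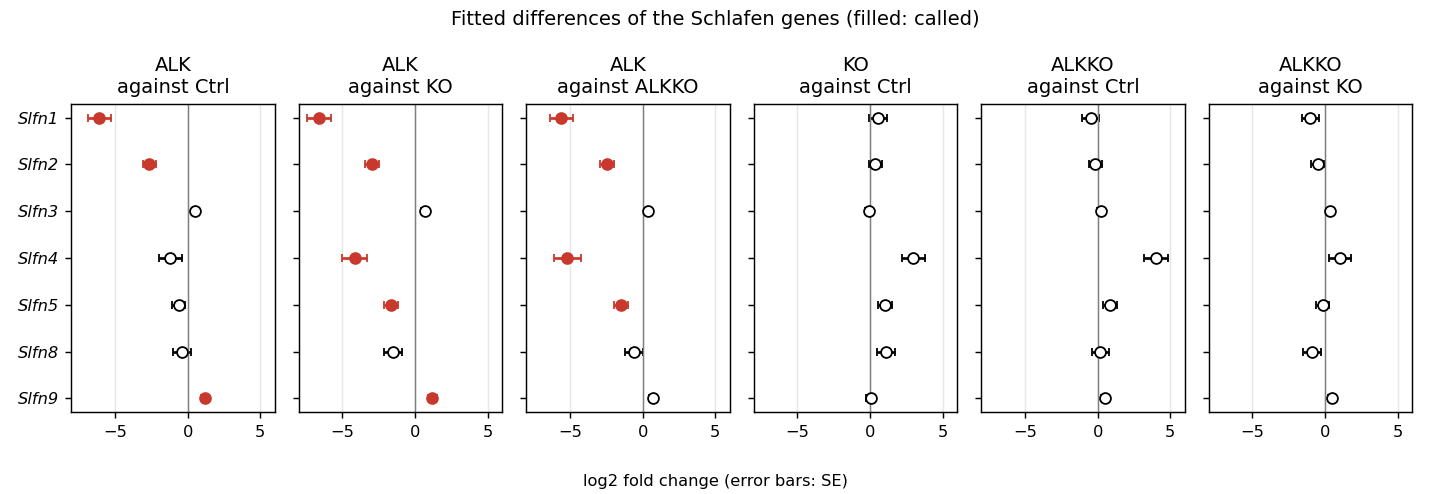
Log2 fold change with its SE for each Schlafen gene in the 6 comparisons between groups, filled red where the gene was called. Filled points stand in the 3 comparisons with ALK, for Slfn1 at -6.61 to -5.58 and for Slfn2 at -2.98 to -2.47, and the open point of Slfn4 is at 3.99 in ALKKO against Ctrl.

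The interaction asks whether the difference between transgenic and non-transgenic cells depended on Dnmt1, as (ALKKO minus KO) minus (ALK minus Ctrl). It was called for Slfn1, at 5.05 ± 0.950 on the log2 scale (edgeR, adjusted p = 0.0120), where 8.93% of all genes were called and 5.62% were called with a positive sign. The transgenic group was lower by 6.07 with intact Dnmt1, and the difference was -1.03 ± 0.602 with Dnmt1 deleted. The latter difference changed sign when KO2 was left out, to 0.13. For Slfn2 the interaction was 2.11 ± 0.638 (edgeR, adjusted p = 0.0598), and without KO2 it was 2.68 and passed (edgeR, adjusted p = 0.0199). For Slfn4 it was 2.20 ± 1.11 (edgeR, adjusted p = 0.223), and without KO2 3.94 and passed (edgeR, adjusted p = 0.00643). The other 4 members did not pass with or without KO2.

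Levels were compared between members as CPM per kb of annotated exon. In Ctrl the order was Slfn2 (84.4 ± 13.2 CPM per kb, SD, n = 3), Slfn1 (19.9 ± 3.37), Slfn5 (11.6 ± 2.06), Slfn8 (7.53 ± 2.48), Slfn9 (5.60 ± 0.527), Slfn3 (4.18 ± 0.568) and Slfn4 (0.337 ± 0.0804). Slfn8 overlapped both of its neighbours in that order, and the other neighbours did not overlap. In ALK the order was Slfn2 (13.6 ± 7.53 CPM per kb), Slfn9 (12.9 ± 5.92), Slfn5 (7.51 ± 2.92), Slfn3 (6.05 ± 1.45), Slfn8 (5.69 ± 2.49), Slfn1 (0.292 ± 0.220) and Slfn4 (0.147 ± 0.0983). Of these neighbours, Slfn8 and Slfn1 alone did not overlap. In KO the order of the means was Slfn2 (108 ± 59.0 CPM per kb), Slfn1 (28.8 ± 27.7), Slfn5 (23.4 ± 18.4), Slfn8 (16.2 ± 15.8), Slfn9 (5.69 ± 1.30), Slfn3 (3.86 ± 0.697) and Slfn4 (2.66 ± 3.21), where KO2 was the highest library for Slfn1, Slfn2, Slfn4, Slfn5 and Slfn8. There Slfn2 lay above Slfn1 without overlap, and each of the other neighbours overlapped. In ALKKO it was Slfn2 (75.7 ± 5.46 CPM per kb), Slfn5 (20.9 ± 2.59), Slfn1 (14.1 ± 1.32), Slfn8 (8.57 ± 0.458), Slfn9 (7.89 ± 0.673), Slfn4 (5.39 ± 0.592) and Slfn3 (4.78 ± 0.398). There Slfn5 stood above Slfn1 without overlap, Slfn8 overlapped Slfn9, and Slfn4 overlapped Slfn3. Counting per unique 50-base window in place of exon length gave the same order in all 4 groups.

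The family's summed level per length was 102 to 147 CPM per kb in the thymus libraries other than KO2, 329 CPM per kb in KO2 and 33.4 to 56.2 CPM per kb in ALK. Slfn2 made up 53.4% to 66.8% of this sum in the thymi and 28.7%, 15.6% and 39.9% in the 3 tumors. Slfn9 made up 1.34% to 6.84% in the thymi and 34.5%, 34.8% and 15.8% in the tumors. Slfn1 took 8.37% to 18.4% in the thymi and at most 1.11% in the tumors. Slfn4 took 3.70% to 4.12% in ALKKO against 0.211% to 0.312% in Ctrl.

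**Figure D3:**
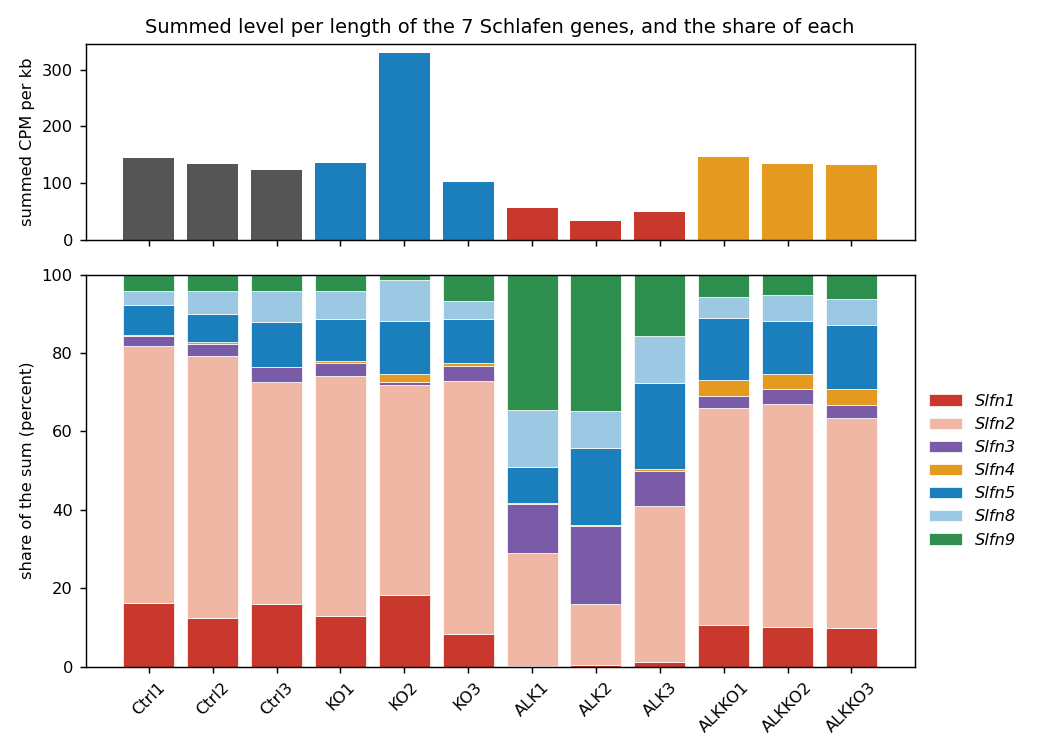
Summed CPM per kb of the 7 Schlafen genes in each library (top, linear axis from 0) and the percent share of each gene in that sum (bottom). The sum is 33.4 to 56.2 CPM per kb in ALK, where the Slfn2 share is 15.6% to 39.9% and the Slfn9 share 15.8% to 34.8%.

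The remaining annotated Schlafen genes were low. The pseudogene Slfn10-ps was at 5.49 ± 2.10 CPM in Ctrl, 8.70 ± 3.06 in KO, 9.27 ± 3.69 in ALK and 9.05 ± 0.683 in ALKKO (SD, n = 3), with no call, and 19.7% of its 50-base windows occur in other genes. Slfnl1 had 1 to 14 counts per library. Slfn14, known from platelets and erythroid cells, had 3 counts in KO2, 2 in the second ALKKO library and 0 in the other 10, where a count of 0 allows up to 3 counts, and neither gene was tested.

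Of the 18 protein-coding genes within 300 kb of the cluster, 16 were tested. In ALK against Ctrl 2 were called higher, Cct6b (1.84 ± 0.468 on the log2 scale, edgeR, adjusted p = 0.0153) and the ribosome assembly gene Nle1 (1.27 ± 0.273, edgeR, adjusted p = 0.00726). The 3 called lower were the metalloproteinase gene Mmp28 (-3.69 ± 0.505, edgeR, adjusted p = 0.000987), Heatr9 (-4.46 ± 1.44, edgeR, adjusted p = 0.0405) and the T-cell chemokine gene Ccl5 (-5.23 ± 0.938, edgeR, adjusted p = 0.00318). Heatr9 was near the floor, at 0 to 0.0782 CPM in ALK and 0.0536 to 1.11 CPM in Ctrl, and these groups overlapped. Unc45b, which precedes Slfn5, was not called (-0.81 ± 1.10, edgeR, adjusted p = 0.610). Of all genes, 20.4% were called in ALK against Ctrl, 1350 higher and 1931 lower. The median of the 16 neighbours was -0.05, near the 0.05 of all genes. In ALKKO against Ctrl none of the 16 was called, where 0.181% of all genes were.

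**Figure D4:**
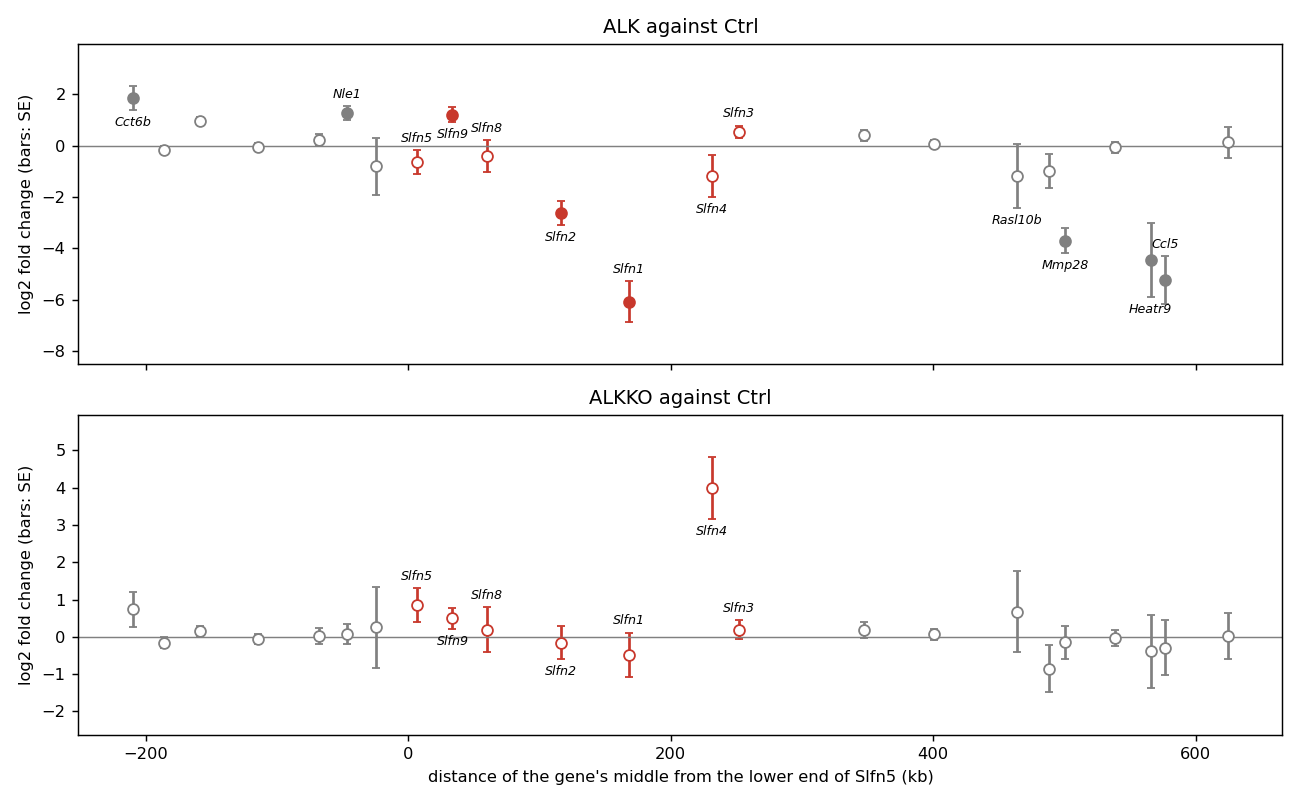
Log2 fold change with its SE along the region, by distance in kb of each gene's middle from the lower end of Slfn5, for Schlafen genes (red) and tested protein-coding neighbours (grey), filled where called. In ALK against Ctrl Slfn1 (-6.07) and Slfn2 (-2.63) are the lowest members, with Slfn4 at -1.18 and Slfn9 at 1.21, and in ALKKO against Ctrl Slfn4 is at 3.99 with its neighbour Slfn3 at 0.20.

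Type I interferon acts through the receptor chains Ifnar1 and Ifnar2 and STAT factors on a common set of induced genes, of which several Schlafen genes are part. Ifnar1 was at 82.6, 58.6 and 132 CPM in ALK against 174 to 185 CPM in Ctrl, a log2 difference of -0.96 ± 0.233 that stayed under the fold threshold (edgeR, adjusted p = 0.0123). Ifnar2 gave -0.30 ± 0.250 (edgeR, adjusted p = 0.386). In ALK against Ctrl 20.4% of all genes were called, 1350 higher and 1931 lower. Of the 15 receptor and signaling genes, 0 were called higher and 4 lower in this comparison, with a median log2 difference of -0.83. Irf7, the factor of this list that amplifies the response, fell by 3.17 ± 0.769 (edgeR, adjusted p = 0.0126). Of 31 tested interferon-stimulated genes that are no Schlafen genes, 0 were called higher and 17 lower, with a median of -2.09 and an all-gene median of 0.05. Without KO2 in the fit 20 were called lower, and 22.9% of all genes were called in either direction. Isg15, a ubiquitin-like modifier among the 31, fell by 2.45 ± 0.679 (edgeR, adjusted p = 0.0220).

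In ALKKO against Ctrl none of these 31 was called, where 0.181% of all genes were. Higher in ALKKO without overlap between the groups were 7 of them, and 9.92% of all genes. Ifit1bl1, an interferon-induced gene, was at 20.5, 11.4 and 21.3 CPM in ALKKO against 5.28 to 6.71 CPM in Ctrl and 83.9 CPM in KO2, a log2 difference from Ctrl of 1.60 ± 0.932 (edgeR, adjusted p = 0.9998). The summed interferon-stimulated genes were 1256 to 1378 CPM in Ctrl, 1102 to 1320 CPM in KO1 and KO3, 3773 CPM in KO2, 497 to 567 CPM in the tumors and 1485 to 1811 CPM in ALKKO. Slfn4, Slfn5 and this sum were all higher in ALKKO than in Ctrl and all highest in KO2. Slfn1, Slfn2 and Slfn8 were also highest in KO2. In KO1 and KO3 the sum did not exceed the Ctrl range, whereas Slfn4 did (3.13 and 3.30 CPM against 1.02 to 1.66 CPM). Of the long members, which have the response element core in their windows, Slfn5 and Slfn8 were highest in KO2 and Slfn9 was lowest there. The part of interferon in the Schlafen values was not tested.

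Genes of T-cell quiescence, the process in which Slfn2 is known to act, gave 0 higher and 6 lower calls among 13 in ALK against Ctrl. Their median was -1.16, and 20.4% of all genes were called in this comparison. Foxo1, a central factor of quiescence, gave -0.11 ± 0.312 (edgeR, adjusted p = 0.817). Its targets differed: Klf2 was at 3.90, 3.84 and 24.0 CPM in ALK against 27.0 to 37.8 CPM in Ctrl (-1.65 ± 0.787, edgeR, adjusted p = 0.135), and Il7r ranged from 1.28 to 174 CPM across the tumors. None of the 10 proliferation genes was called in ALK against Ctrl, though all 10 had a positive log2 difference, with a median of 0.50. They summed to 5264, 4725 and 2287 CPM in the 3 tumors and 2743 to 3487 CPM in Ctrl. The cell-cycle marker Mki67 was at 1577, 1380.3 and 590.1 CPM in ALK and 748 to 886 CPM in Ctrl. B-cell markers summed to 8.03 to 19.5 CPM in ALK and double-positive thymocyte markers to 2124 to 4238 CPM against 8059 to 9274 CPM in Ctrl. Of the 9 tested double-positive markers, 5 were called lower, 0 higher, and 2 had a positive difference. Dntt was the largest part of that sum in ALK, at 1054 to 2942 CPM against 1828 to 2061 CPM in Ctrl. Cd8b1 was at 7.25 to 28.8 CPM against 1346 to 1693 CPM. The part of cell composition in the lower Slfn1 and Slfn2 of ALK was not tested.

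For each member the genes with the most similar profile were found by the root mean square difference of centred log2(CPM + 1) over the 12 libraries, among the 14593 genes whose mean reached 1 CPM. Likeness is a description over libraries that share their groups. Nearest to Slfn1 were Dnase1l3, a secreted nuclease gene (difference 0.297), the cyclin gene Ccnd2 (0.347) and Ccl5 (0.370), the same Ccl5 that lies within 300 kb of the cluster. Nearest to Slfn2 were the sphingosine-1-phosphate receptor gene S1pr4 (0.221), Izumo1r, which encodes folate receptor 4 (0.228), and the Tec kinase gene Tec (0.309). Nearest to Slfn4 were Serpinb1c (0.499), the germ-cell RNA-binding protein gene Dazl (0.517) and the long noncoding RNA B530045E10Rik (0.594). Dazl was at 0.0528 to 0.162 CPM in Ctrl, 2.54, 6.72 and 2.56 CPM in KO, at most 0.470 CPM in the tumors and 8.72, 11.5 and 9.90 CPM in ALKKO, so that it, like Slfn4, was higher in all 6 libraries with deleted Dnmt1 than in the 6 others and higher in ALKKO than in all KO libraries, where Slfn4 of KO2 was instead above the ALKKO range.

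Nearest to Slfn9 were the replication fork gene Timeless (0.189), Ahi1 (0.190) and Smpd4 (0.195), and nearest to Slfn3 were Brip1 (0.107), Ezr (0.124) and Fancb (0.127), of which Brip1 and Fancb encode proteins of the Fanconi anemia repair pathway. Nearest to Slfn5 were Gsap (0.174), the G protein subunit gene Gng2 (0.176) and the pseudogene Gm11346 (0.237). Nearest to Slfn8 were the phosphatase gene Ptprj (0.315), Pgap1 (0.335) and Spi1 (0.343), the myeloid and B-cell transcription factor gene whose level was 88.3 CPM in KO2 and 5.59 to 20.9 CPM in the other 11 libraries. Within the family the smallest differences were those of Slfn3 and Slfn9 (0.330) and of Slfn5 and Slfn8 (0.557). Many other genes were nearer, since Slfn9 ranked 3269 among the genes nearest to Slfn3, and Slfn3 ranked 440 for Slfn9. Slfn8 ranked 690 for Slfn5, and Slfn5 ranked 392 for Slfn8. The measure is not scaled to a gene's spread. The closest relatives in sequence, Slfn8 with Slfn9 and Slfn3 with Slfn4, differed by 1.13 and 1.79.

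**Figure D5:**
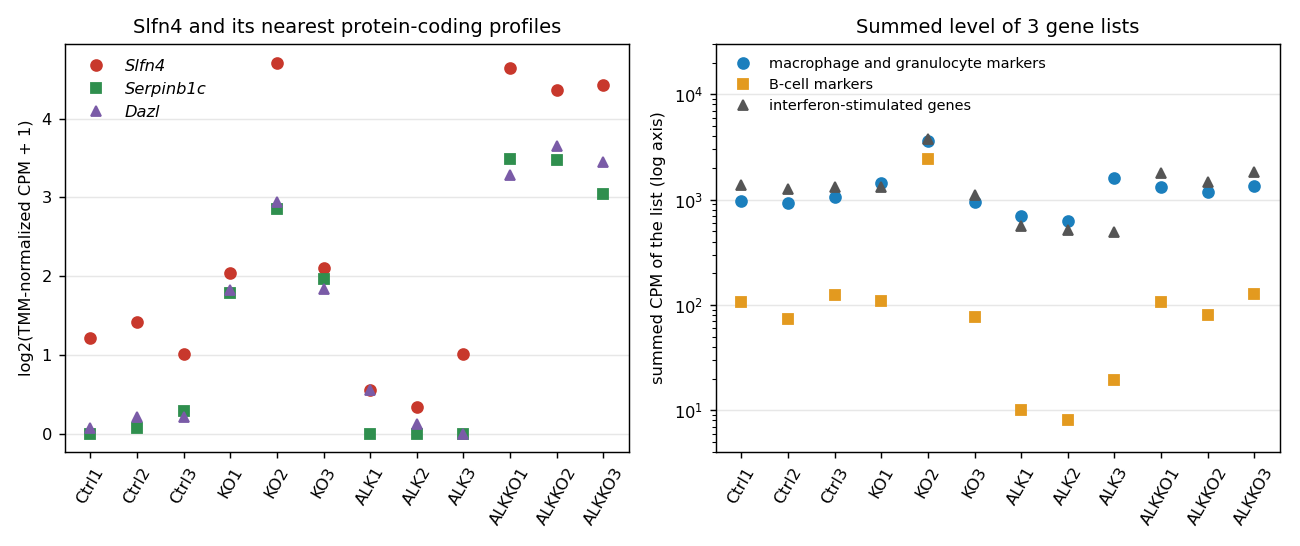
Left, log2(CPM + 1) of Slfn4 and the protein-coding genes nearest to it in profile in each library. Right, summed CPM (log axis) of the macrophage and granulocyte markers, B-cell markers and interferon-stimulated genes, in which KO2 stands out (3574, 2440.3 and 3773 CPM) while ALKKO does not reach it.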

How the data were processed

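Poly-A-enriched, stranded mRNA of 12 mice was sequenced by the study as 50-base single-end reads. The authors trimmed the reads (Trim Galore), aligned them to mm10 (STAR) and counted them per gene (HTSeq). The submitters' processing notes also name FastQC, Picard 2.19.2 and DESeq2, with no other version given. The values used are the raw counts per gene that the authors deposited, with 12473857 to 18864327 reads on genes per library (median 15262212). HTSeq's lines for unassigned reads were left out. Of the 50600 identifiers, 50376 matched the GENCODE M21 annotation without version and 45737 with it. Reads that align to several places are not in these counts, so regions shared by paralogs are underrepresented.

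Groups came from the labels. The main test was that of edgeR 4.0.16, run under R 4.3.3 (TMM factors 0.913 to 1.06, filterByExpr leaving 16052 genes, 1 term per group over all 12 libraries, robust quasi-likelihood fit), with Benjamini-Hochberg adjustment over all genes tested. The thresholds are those of the study, with edgeR in place of DESeq2. The procedure was tested on simulated counts. SE values are derived from the F statistic and log2 fold change, and the common biological coefficient of variation was 0.436. No pair of replicate libraries agreed within sampling noise. Alternatives were DESeq2 1.42.0, its size factors, other filters, replicate number, sex or age as covariates, fits of the 2 groups compared, no fold threshold, and each library left out. Leaving KO2 out of comparisons without KO was added after seeing the data. The members and gene lists were chosen with earlier results of these data known, and named genes are the members, their neighbours, listed key genes and the 3 genes nearest to each member in profile. The ACTTCCTG motif was added after the sequences were seen. Some of the named genes are not reported here.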

Additional observations from a re-analysis of the deposited data

Results flagged for a closer look

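The difference of transgenic from non-transgenic cells depended on Dnmt1 for Slfn1, with an interaction of 5.05 on the log2 scale (edgeR, adjusted p = 0.0120). Slfn1 read 0.269 to 1.02 CPM in all 3 ALK tumors and 24.5 to 29.1 CPM in all 3 ALKKO thymi. The interaction stayed called in all 19 alternatives that kept the gene, at 4.65 to 6.23. ALK is the only tumor group, so the tumor state and the combination of transgene and intact Dnmt1 cannot be told apart.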

How the results depend on the processing

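Slfn1 and Slfn2 stayed lower and called in ALK against each thymus group in all alternatives that kept them. The counts of Schlafen genes called changed as follows. In ALK against KO, where 5 were called, keeping genes with 10 or more counts in each library gave 3, the fit of these 2 groups gave 2, and leaving out 1 library gave 3 to 6, with 3 without KO2 or without ALK1. In ALK against ALKKO, where 4 were called, at least 10 counts in every library gave 2, since Slfn1 and Slfn4 were then not tested. In ALKKO against Ctrl, where 0 were called, Slfn4 made 1 with sex as a covariate, 1 in the fit of these 2 groups and 1 without KO2, and leaving out 1 library gave 0 to 1. Slfn4 there ranged from 3.82 to 4.17 on the log2 scale with adjusted p of 0.000958 to 0.863 over its alternatives. For the interaction, where 1 was called, DESeq2 gave 2, age as a covariate 2, sex as a covariate 3, at least 10 counts in every library 0, and leaving out 1 library gave 1 to 3. In ALK against Ctrl and ALK against ALKKO, leaving out 1 library gave 2 to 3 and 3 to 4. KO2 is the only female, so its sex and its other differences cannot be told apart. DESeq2 gave Slfn4 no adjusted p in any comparison, so its counts leave that gene out. Of the 18 same-numbered pairs, 5 correlated above 0.1 (-0.143 to 0.445), and differently numbered pairs correlated at -0.462 to 0.261. Whether replicate numbers pair the samples was not settled by these values. With the replicate block the members called were 3 in ALK against Ctrl, 5 against KO and 3 against ALKKO, 1 for the interaction and 0 elsewhere. Over all genes, calls fell from 3796 to 869 in ALK against KO in the fit of these 2 groups and from 3281 to 1756 in ALK against Ctrl with at least 10 counts in every library, rose from 1433 to 2486 for the interaction with DESeq2 and from 29 to 98 in ALKKO against Ctrl with DESeq2 and in the fit of these 2 groups. Depth limits Slfn1 and Slfn4 in ALK, with 3 to 13 counts.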
